A study of Mus musculus with 30 samples.

Results

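The genes of 10 transcription factors of blood progenitors and leukemia, 10 of the 54532 genes in the count table, were followed in murine erythroleukemia (MEL) cells: *Spi1*, *Fli1*, *Erg*, *Gata2*, *Myb*, *Myc*, *Runx1*, *Cebpa*, *Ikzf1* and *Lyl1*. They were chosen by symbol, as the rows whose Ensembl identifier carries one of these names in the GRCm38 annotation. The study asked what the loss of Abcb10, an ABC transporter of the inner mitochondrial membrane, does to MEL cells as they differentiate. RNA was sequenced from wild type (WT) MEL cells and from Abcb10-null MEL cells, each at day 0 without treatment and at days 2 and 5 in 1.5% dimethyl sulfoxide (DMSO), the agent that makes these cells turn to hemoglobin synthesis. Each of the 6 groups held 5 libraries labelled as biological replicates, for a total of 30. All Abcb10-null cells stem from 1 CRISPR/Cas9 clone, made with a lentivirus and sorted for a fluorescent marker, so a difference between genotypes cannot be told apart from a difference between that clone and the WT cells. The study also describes control cells given an mCherry lentivirus, and the sample labels name the WT libraries only as WT MEL cells. Levels are CPM, counts brought to a common library total with TMM scaling, and a gene was called changed where edgeR's quasi-likelihood test gave a Benjamini-Hochberg adjusted p under 0.05 over all genes tested. A log2 fold change is followed by its standard error (SE), taken as the absolute change over the square root of the test's F statistic. In bulk RNA, fewer cells expressing a gene and less of its RNA per cell cannot be told apart.

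MEL cells derive from mice infected with the Friend virus complex, whose integration next to *Spi1* drives PU.1, the ETS factor that *Spi1* encodes. PU.1 binds GATA-1 and holds back the erythroid program, and MEL cells that leave the cycle and make hemoglobin are known to shut down *Spi1*, *Myb* and *Myc*. The other genes here serve stem and progenitor cells or the non-erythroid branches: GATA-2 precedes GATA-1 in the lineage, RUNX1 founds definitive hematopoiesis and drives megakaryocytes, C/EBPα makes granulocytes, Ikaros (*Ikzf1*) makes lymphocytes and takes part in globin switching, LYL1 is the close relative of TAL1, and FLI1 and ERG are sister ETS factors of stem cells and megakaryocytes.

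Library totals ran from 9906783 to 20157768 counts. *Abcb10* itself was lower in every Abcb10-null library than in every WT library of the same day, with means of 74.3 and 119 CPM at day 0 and of 212 and 1223 CPM at day 5 for *Abcb10*. The erythroid marker *Slc4a1*, which encodes the band 3 anion exchanger, stood apart in some libraries. At day 2 in WT it was 14.4 and 14.1 CPM in replicates 1 and 2 and 0.934 to 2.27 CPM in the other 3, and at day 5 in WT it was 253 CPM in replicate 5 and 500.1 to 652 CPM in the other 4. Among Abcb10-null libraries it was 6.33, 4.93 and 4.44 CPM in replicates 1, 3 and 4 and 0.446 and 0.466 CPM in replicates 2 and 5 at day 2, and 25.7 to 96.5 CPM at day 5. Abcb10-null day 5 replicate 4 had the smallest total and the fewest genes at 0 counts, 18021. Genes at 0 were also few in Abcb10-null day 5 replicate 5 (26857) and WT day 5 replicates 2, 3 and 4 (28616, 24546 and 28233). At day 0 in WT they numbered 34299 to 35654. The part of this in rises to low levels at day 5, such as those of *Ikzf4*, *Id3* and *Ets1*, was not tested. Summed over the 8 markers of monocytes and macrophages the level was at most 15.1 CPM in a library, over the 8 of granulocytes at most 17.5 CPM, over the 6 of B cells at most 10.1 CPM and over the 6 of T cells at most 22.2 CPM, against 1287 to 20680 CPM over the 10 erythroid markers. The 7 mast cell markers summed to 90.1 to 98.0 CPM (WT) and 176 to 208 CPM (Abcb10-null) at day 0, of which *Hdc*, the histamine-forming enzyme, held 89.1 to 97.0 and 169 to 204 CPM, and to at most 6.44 CPM later. *Kit*, which marks mast cells and progenitors, was at most 2.70 CPM. The 7 megakaryocyte markers summed to 154.5 to 605 CPM, with *Itga2b* at 73.5 to 428 CPM and *Pf4* at 30.5 to 276 CPM.

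All 10 genes are protein coding and lie on 9 chromosomes. Per kilobase of exon at day 0 in WT, the order was *Lyl1* at 47.0 ± 6.2 CPM per kb (SD, n = 5), *Myb* at 27.96 ± 1.3, *Spi1* at 26.7 ± 3.7, *Ikzf1* at 18.99 ± 1.6, *Fli1* at 14.2 ± 1.6, *Myc* at 13.6 ± 2.3, *Cebpa* at 13.4 ± 1.5, *Runx1* at 1.13 ± 0.24, *Gata2* at 0.203 ± 0.104 and *Erg* at 0.015 ± 0.024. *Myb* and *Spi1* did not differ beyond their spread, nor did *Fli1*, *Myc* and *Cebpa*. By day 5 in WT *Myb* had moved from second place to 0.986 ± 0.43 CPM per kb, below *Runx1* at 4.67 ± 3.02, while *Lyl1* still led with 35.75 ± 3.5. In Abcb10-null cells at day 0 *Myb* led the order with 43.0 ± 3.1 CPM per kb, and at day 5 it stood at 4.34 ± 1.3. *Gata2* and *Erg* were the last in every group.

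**Figure D1:**
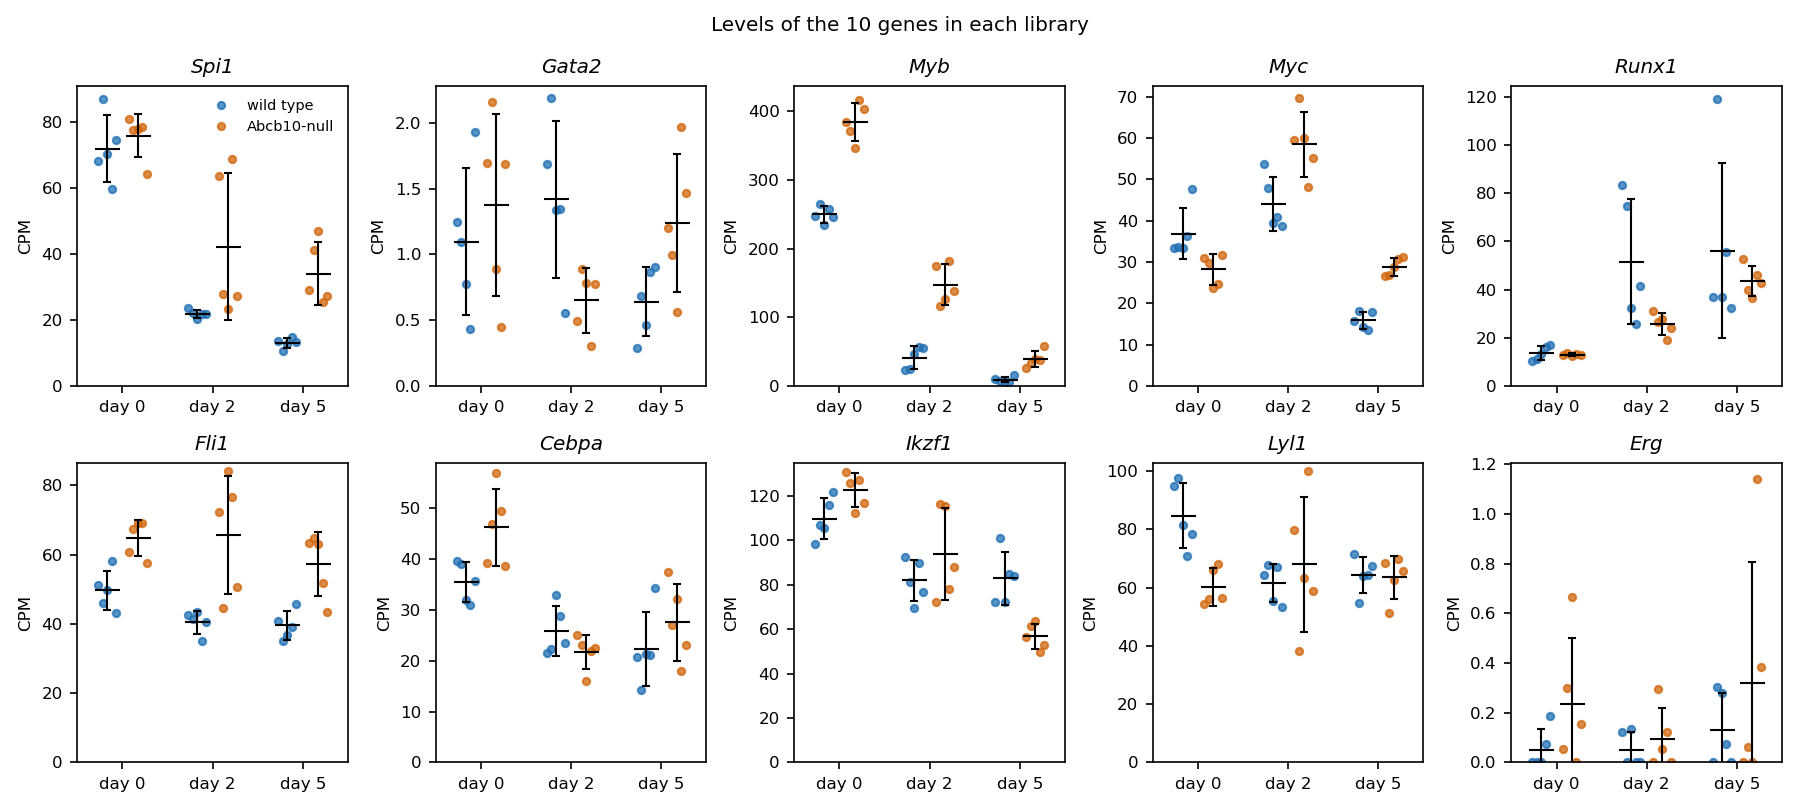
CPM of each gene in each library by day, with WT in blue and Abcb10-null in orange; black marks show the mean and SD of 5 libraries. *Myb* runs from 416 CPM in an Abcb10-null library at day 0 to 6.15 CPM in a WT library at day 5, and *Runx1* goes the other way, with WT day 5 replicate 2 alone at 119 CPM.

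Of the 10 genes, 9 passed the filter on low counts and were tested, and *Erg* did not pass it in any comparison. From day 0 to day 2 in WT, 1 of the 9 was called higher (*Runx1*) and 6 lower, where 31.5% and 30.7% of all genes were called higher and lower. From day 0 to day 5 in WT, 1 was higher and 7 lower, against 36.5% and 34.7% of all genes, and the median log2 fold change was -0.67 beside 0.02 over all genes. From day 2 to day 5 in WT, 0 were higher and 3 lower (*Spi1*, *Myb* and *Myc*), with backgrounds of 17% and 16.4%. These 3 comparisons share libraries, as do those of the Abcb10-null cells, and are given side by side.

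In Abcb10-null cells from day 0 to day 2, 2 of the 9 genes were called higher (*Myc* and *Runx1*) and 3 lower (*Spi1*, *Myb* and *Cebpa*), beside 23.1% and 20.1% of all genes. From day 0 to day 5, 1 was higher and 4 lower, against 33.9% and 33.3%, with a median log2 fold change of -0.19 and 0.01 over all genes. From day 2 to day 5, 1 was higher and 3 lower, with backgrounds of 14.4% and 16.6%. Whether the changes differ between the genotypes was asked with the interaction of genotype and time, in 20 libraries.

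That interaction was called for 5 of the 9 genes over days 0 to 2 (*Spi1*, *Myb*, *Myc*, *Runx1* and *Cebpa*), beside 22.8% of all genes in either direction. It was called for 5 over days 0 to 5 (*Spi1*, *Myb*, *Myc*, *Ikzf1* and *Lyl1*), beside 31.5%, and for 1 over days 2 to 5 (*Ikzf1*), beside 4.71%. Between genotypes at a given day, 3 genes were higher and 2 lower in Abcb10-null cells at day 0, where 19.7% and 16.2% of all genes were. At day 2, 3 were higher and 1 lower, beside 14.9% and 16.9%, and at day 5, 4 were higher and 1 lower, beside 19.8% and 17.8%. These counts depended on the fit. At day 0, 2 genes were called (*Myc* and *Lyl1*) instead of 5 with the spread estimated over all 30 libraries together. At day 2, 1 was called (*Myb*) instead of 4 without WT replicates 1 and 2, and 2 to 5 without single libraries. The interaction over days 0 to 2 was called for 2 instead of 5 with the replicate number as a block, for 3 without WT day 2 replicates 1 and 2, and for 2 to 6 without single libraries.

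**Figure D2:**
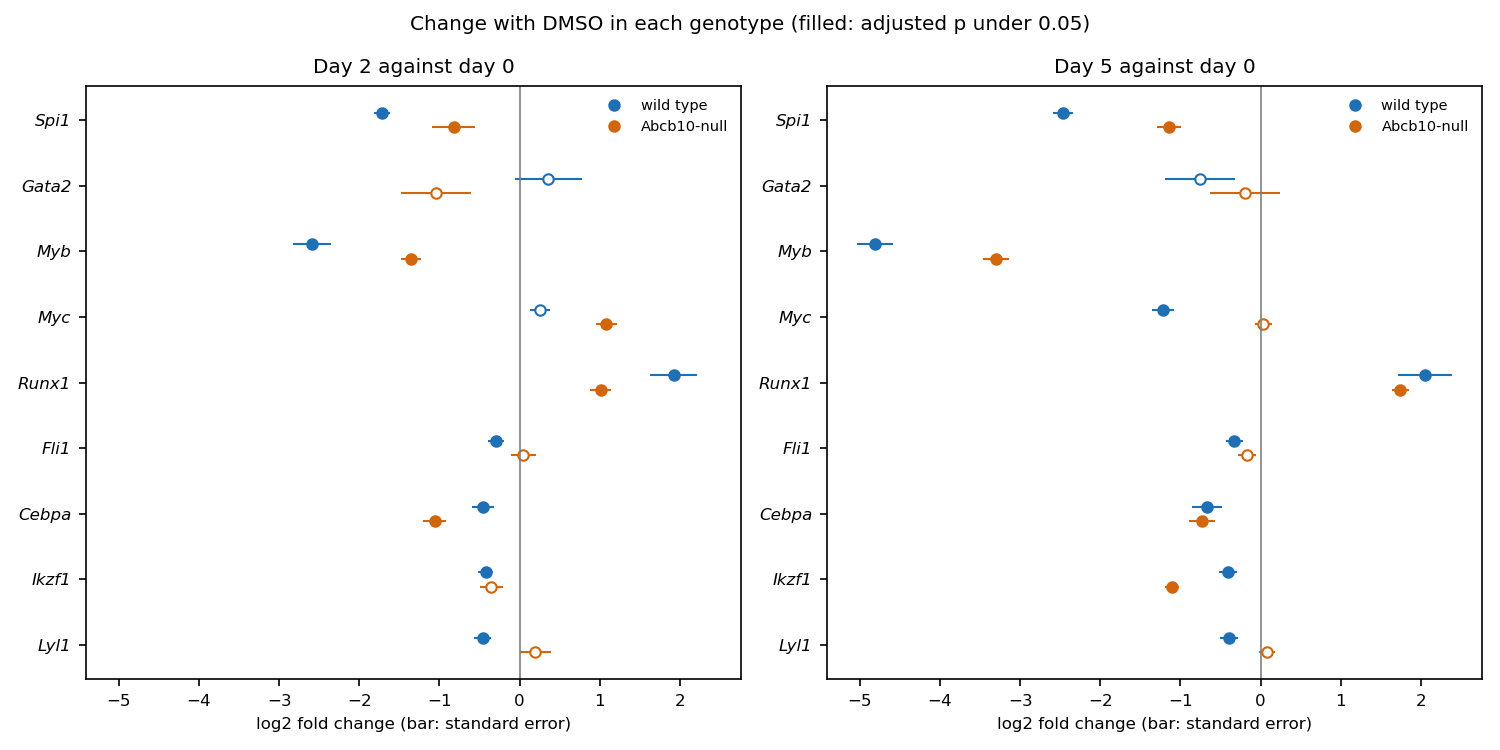
Log2 fold change of day 2 (left) and day 5 (right) against day 0 for the 9 genes tested, with WT in blue and Abcb10-null in orange, bars for the SE and filled points for an adjusted p under 0.05. The WT points of *Spi1*, *Myb* and *Myc* lie to the left of the Abcb10-null points on both days, and *Runx1* alone lies to the right of 0 in both genotypes on both days.

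*Spi1* (ENSMUSG00000002111, chromosome 2, 91082390 to 91115756 on the plus strand of GRCm38) fell in both genotypes, and less far in Abcb10-null cells. In WT it was 68.2, 87.1, 70.2, 59.6 and 74.4 CPM at day 0, 23.7, 22.1, 20.4, 21.7 and 21.7 CPM at day 2, and 13.5, 10.6, 12.8, 14.8 and 13.3 CPM at day 5. The 3 days did not overlap, and the day 5 mean was 18.1% of the day 0 mean. The change was -1.71 (SE 0.10, edgeR, adjusted p = 4.39e-08) to day 2 and -2.47 (SE 0.13, adjusted p = 2.91e-09) to day 5, and the step from day 2 to day 5 was -0.75 (SE 0.13, adjusted p = 0.00106).

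In Abcb10-null cells *Spi1* started at 80.9, 77.7, 77.8, 78.5 and 64.3 CPM, which overlapped WT and was not called different (0.07, SE 0.09, adjusted p = 0.575). At day 2 the 5 libraries fell into a high pair, with 63.8 and 68.9 CPM in replicates 1 and 4, and a low trio, with 27.8, 23.2 and 27.3 CPM in replicates 2, 3 and 5. The high pair lay at the lower edge of the day 0 values and the low trio at or just above the WT values of day 2. At day 5 they were 29.2, 41.2, 46.9, 25.4 and 27.3 CPM, all above every WT library and 44.8% of the day 0 mean.

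The Abcb10-null change in *Spi1* was -0.82 (SE 0.27, adjusted p = 0.0259) to day 2 and -1.14 (SE 0.15, adjusted p = 5.81e-06) to day 5. The first of these was lost when any of 5 single libraries was left out (day 0 replicates 1, 2 or 3, or day 2 replicates 3 or 5), with changes of -0.81 to -0.65 and adjusted p of 0.0517 to 0.0632. Against WT, *Spi1* was higher in Abcb10-null cells by 0.89 (SE 0.28, adjusted p = 0.0296) at day 2 and by 1.38 (SE 0.18, adjusted p = 0.000123), or 2.604-fold, at day 5. The day 2 difference was lost without any 1 WT day 2 library or without Abcb10-null replicate 1 or 4, at 0.64 to 0.92 and adjusted p of 0.0503 to 0.0895, while the day 5 difference kept its call without each library in turn. The interaction was 0.87 (SE 0.31, adjusted p = 0.0456) over days 0 to 2, a call lost without 17 of the 20 libraries taken singly (every library but Abcb10-null day 2 replicates 2, 3 and 5), at 0.59 to 0.89. Over days 0 to 5 it was 1.33 (SE 0.21, adjusted p = 4.27e-05).

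Of 18 myeloid genes that PU.1 is known to control, 9 passed the filter from day 0 to day 5 in WT, and 8 of these fell and 1 rose (34.7% and 36.5% of all genes), with a median log2 fold change of -2.14 beside 0.02 over all genes. *Tyrobp*, an adaptor of immune receptors, went from a mean of 16.7 CPM to 0.0441 CPM and *Cd53*, a leukocyte tetraspanin, from 11.2 to 0.132 CPM, on at most 2 and 5 counts a library at day 5, so their fitted changes of -8.29 and -6.29 depend on the prior count. *Ncf1*, a subunit of the phagocyte oxidase, fell by 4.62, and *Coro1a*, an actin regulator of leukocytes, fell by 3.10, from 329 to 38.4 CPM. *Ncf4*, another oxidase subunit, was the one that rose, by 1.39. In Abcb10-null cells 6 of the 11 tested fell over the same days, beside 33.3% of all genes, with a median of -1.05. Between genotypes at day 5, 5 of 9 were higher and 1 lower in Abcb10-null libraries (median 1.54), beside 19.8% and 17.8% of all genes. The interaction over days 0 to 5 was called higher for 5 of 12 and lower for 1, where 31.5% of all genes were called. At day 0 *Spi1* itself was not different. There 7 of 12 of these genes were higher in Abcb10-null cells and 0 lower, beside 19.7% and 16.2% of all genes. *Cd53* was higher by 2.08 (11.2 and 47.5 CPM). At day 0, 9 of the 18 had a mean over 1 CPM in WT and 11 in Abcb10-null cells. The filter was applied within each comparison, so a gene that passed only through the Abcb10-null libraries could hardly be called lower. Likewise, a gene that passed only through day 0 libraries, as *Tyrobp* and *Cd53* did in WT, could hardly be called higher with time. The counts of falls and their medians over time carry this limit. The genes tested, and those behind each median, differ between comparisons. *Spib*, a close relative of *Spi1*, was at most 1.11 CPM and was not tested.

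*Gata1*, the erythroid factor that PU.1 binds, was 260 ± 22 CPM at day 0 and 335 ± 18 CPM at day 5 in WT, a called rise of 0.36, and 262 ± 17 and 210 ± 37 CPM in Abcb10-null cells, a called fall of 0.31. The ratio of *Spi1* to *Gata1*, both per kilobase, was 0.232 to 0.298 at day 0 in WT and 0.0311 to 0.0382 at day 5. The Abcb10-null libraries spanned 0.250 to 0.280 at day 0 and 0.120 to 0.169 at day 5, above every WT library of that day. At day 2 the genotypes overlapped, at 0.0620 to 0.07575 in WT and 0.0690 to 0.150 in Abcb10-null cells.

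*Fli1* (ENSMUSG00000016087, chromosome 9, 32422204 to 32542861, minus strand), a Friend virus integration site of its own, changed little with time and was higher in Abcb10-null cells at each day. WT libraries had 51.1, 45.9, 49.8, 58.3 and 43.3 CPM at day 0, 42.5, 41.4, 43.4, 35.0 and 40.5 CPM at day 2 and 40.7, 35.1, 36.9, 39.1 and 45.8 CPM at day 5, groups that overlap, with a called fall of 0.33 (SE 0.11, adjusted p = 0.0146). The WT fall to day 2 was 0.29 (SE 0.10, adjusted p = 0.0173) and lost its call with all libraries in one fit (adjusted p = 0.0723). In Abcb10-null cells it was 60.9, 67.3, 69.1, 69.2 and 57.6 CPM at day 0, 72.3, 44.7, 84.2, 76.7 and 50.7 CPM at day 2 and 63.3, 64.9, 63.0, 51.8 and 43.6 CPM at day 5, with no change called.

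The difference between genotypes in *Fli1* was 0.38 (SE 0.08, adjusted p = 0.00174) at day 0, 0.64 (SE 0.17, adjusted p = 0.0129) at day 2 and 0.53 (SE 0.13, adjusted p = 0.00605) at day 5. At day 2 every Abcb10-null library was above every WT library, whose highest value was 43.4 CPM, and at days 0 and 5 one or more libraries overlapped. With all 30 libraries in one fit the day 0 difference had an adjusted p of 0.0679, and without WT day 2 replicates 1 and 2 together the day 2 difference was 0.68 with an adjusted p of 0.064.

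*Erg* (ENSMUSG00000040732, chromosome 16, 95359169 to 95586593, minus strand) was at 0 in 13 of 30 libraries and over 3 counts in 6, with 12 counts as the most. A floor of 3 counts corresponds to 0.149 CPM in the deepest library and 0.303 CPM in the shallowest. The highest level, 1.14 CPM, was in Abcb10-null day 5 replicate 4, the library with the fewest genes at 0, and the next, 0.668 CPM, in Abcb10-null day 0 replicate 3. No difference was detectable at this depth: over the 9 comparisons of 2 groups the two-sided exact permutation p ranged from 0.1905 to 1, where 5 libraries against 5 could reach 0.00794. *Ets1*, which lies next to *Fli1*, was 0.155 ± 0.062 CPM at day 0 and 0.836 ± 0.61 CPM at day 5 in WT and was too low to test in most comparisons.

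*Gata2* (ENSMUSG00000015053, chromosome 6, 88193891 to 88207032, plus strand), the GATA factor of stem cells and early progenitors, was near 1 CPM throughout and no change in it was called with all libraries in place. Calls appeared without WT day 2 replicate 5 for WT days 2 to 5 (-1.32, adjusted p = 0.0294) and without Abcb10-null day 0 replicate 4 or day 2 replicate 2 for Abcb10-null days 0 to 2 (-1.26 to -1.18, adjusted p of 0.0242 to 0.0492). It was 0.436 to 1.93 CPM at day 0, 0.553 to 2.19 CPM at day 2 and 0.292 to 0.901 CPM at day 5 in WT, and 0.448 to 2.16, 0.304 to 0.892 and 0.566 to 1.97 CPM in Abcb10-null cells, on 4 to 43 counts a library. The interaction over days 2 to 5 was 2.01 (SE 0.63, adjusted p = 0.0673), and it was under the threshold in DESeq2 (adjusted p = 0.0382), with all libraries in one fit (0.0409) and without WT day 5 replicate 5 (0.0415). The difference at day 2 was -1.16 (SE 0.43, adjusted p = 0.0542), with 0.0453 in DESeq2, 0.0489 in one fit, and 0.0297 without WT replicate 5 or 0.042 without Abcb10-null replicate 2.

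*Myb* (ENSMUSG00000019982, chromosome 10, 21124935 to 21160984, minus strand), the proto-oncogene that keeps progenitors dividing, fell most of the 10 genes in both genotypes. The WT values were 247, 265, 234, 257 and 246 CPM at day 0, 23.2, 24.3, 47.2, 57.2 and 54.7 CPM at day 2, and 9.40, 6.998, 6.31, 6.15 and 15.2 CPM at day 5. No 2 of the days overlapped, and at day 5 the mean was 3.53% of day 0. Replicates 1 and 2 were the low pair at day 2, the libraries with the highest *Slc4a1* of their day, and replicate 5 was the highest at day 5, the library with the lowest *Slc4a1*. Without single libraries the change to day 2 was -2.74 to -2.41 and the change to day 5 -5.11 to -4.71. Without day 2 replicates 1 and 2 together *Myb* changed by -2.20, and without day 5 replicates 2 and 5 together by -5.09.

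The changes of *Myb* in WT were -2.59 (SE 0.24, adjusted p = 1.27e-06) to day 2, -4.82 (SE 0.22, adjusted p = 1.33e-09), or 28.2-fold, to day 5, and -2.23 (SE 0.33, adjusted p = 0.000384) from day 2 to day 5. Only 0.802% of the genes tested moved further than *Myb* over days 0 to 5. In Abcb10-null cells *Myb* was 385, 371, 346, 416 and 403 CPM at day 0, 174.5, 117, 127, 182 and 138 CPM at day 2, and 25.7, 33.8, 39.6, 37.3 and 57.7 CPM at day 5. Each of these groups lay wholly above the WT group of its day.

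The Abcb10-null changes of *Myb* were -1.35 (SE 0.13, adjusted p = 3.74e-06), -3.30 (SE 0.16, adjusted p = 8.80e-11), or 9.86-fold, and -1.93 (SE 0.20, adjusted p = 3.38e-05) over the same intervals. The excess over WT was 0.61 (SE 0.06, adjusted p = 2.82e-07) at day 0, 1.79 (SE 0.25, adjusted p = 0.00107) at day 2 and 2.13 (SE 0.27, adjusted p = 8.94e-05), or 4.37-fold, at day 5. With all 30 libraries in one fit the day 0 excess was 0.62 with an adjusted p of 0.0666. The interaction was 1.22 (SE 0.27, adjusted p = 0.00397) over days 0 to 2 and 1.52 (SE 0.27, adjusted p = 0.000138) over days 0 to 5, and both kept their call without each library in turn. Over days 2 to 5 it was 0.30 (SE 0.39, adjusted p = 0.71).

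The DNA before the *Myb* start is shown because this gene moved most. RefSeq (GRCm38.p6) gives promoter windows for 7 of the 10 genes, 12 windows in all. They were searched on both strands for the letters GATAA (GATA factors), GAGGAA (PU.1), CCGGAA (other ETS factors), TGTGGT (RUNX), CACGTG (the E-box of MYC) and TAACNG (MYB). No 2 matches overlapped. Of all 32851 windows of 300 bases in RefSeq, 25.4% held GATAA, 28.3% GAGGAA, 14.9% CCGGAA, 16.8% TGTGGT, 7.15% CACGTG and 23.3% TAACNG, and of the 12 windows here 1, 2, 2, 1, 1 and 2 did. The *Myb* window held none of the 6, so the 250 bases before its start, chr10:21160985-21161234 on the minus strand, carry no capitals.

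Myb: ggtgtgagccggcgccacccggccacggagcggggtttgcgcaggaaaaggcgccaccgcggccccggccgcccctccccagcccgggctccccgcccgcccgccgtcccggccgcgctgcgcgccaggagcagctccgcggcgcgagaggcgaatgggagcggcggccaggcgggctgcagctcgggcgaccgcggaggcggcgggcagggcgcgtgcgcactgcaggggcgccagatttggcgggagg

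Of the whole 300-base *Myb* window, 75.0% of the bases were G or C. The antisense gene *Gm26577* shares 559 exon bases with *Myb* (6.26% of its exon length) and had at most 6 counts in a library, where *Myb* had 68 to 7859.

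*Mybl2*, the relative of *Myb* that serves the cell cycle, was 44.5 ± 4.7 CPM at day 0 and 15.1 ± 1.9 CPM at day 5 in WT, against 43.4 ± 4.4 and 9.28 ± 0.86 CPM among the Abcb10-null libraries. The fall of *Mybl2* was 1.56 in WT and 2.22 in Abcb10-null cells, with an interaction of -0.64 (SE 0.16, edgeR, adjusted p = 0.00288). The day 5 level of *Mybl2* was lower by 0.71 in Abcb10-null cells, where that of *Myb* was higher. Of 10 genes known to be under MYB control, 7 were tested in WT over days 0 to 5, and 5 fell and 1 rose, with a median of -0.995, where 34.7% and 36.5% of all genes did and the median of all genes was 0.02. Besides *Myc*, those named are *Mat2a*, which makes S-adenosylmethionine (-1.06), the adenosine receptor *Adora2b* (-1.01) and *Cdk6*, a kinase of early progenitors (-0.995), and the one that rose was *Bcl2*, the survival factor (1.59). In Abcb10-null cells 4 fell and 1 rose, beside 33.3% and 33.9% of all genes. The interaction over days 0 to 5 was called for 1 of the 7, which was *Myc*, beside 31.5% of all genes.

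*Myc* (ENSMUSG00000022346, chromosome 15, 61985391 to 61990374, plus strand), the growth factor-responsive proto-oncogene, took a different course in the 2 genotypes. It stood in WT at 33.4, 33.7, 33.3, 36.4 and 47.6 CPM at day 0, 53.8, 47.9, 39.4, 40.9 and 38.6 CPM at day 2, and 15.7, 18.03, 14.3, 13.5 and 17.96 CPM at day 5. Days 0 and 2 overlapped, and day 5 lay below both. The change was 0.26 (SE 0.13, adjusted p = 0.0914) to day 2, which was called without WT day 0 replicate 5 (adjusted p = 0.0149) or without WT day 2 replicate 3 (0.0407), and -1.21 (SE 0.14, adjusted p = 3.60e-06) to day 5.

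In Abcb10-null cells *Myc* was 31.1, 29.7, 23.8, 24.8 and 31.7 CPM at day 0, 59.6, 69.8, 60.01, 48.2 and 55.2 CPM at day 2, and 26.5, 26.8, 28.7, 30.7 and 31.2 CPM at day 5. It rose to day 2 by 1.08 (SE 0.13, adjusted p = 2.54e-05) or 2.12-fold, and was back at its starting range at day 5, with 0.03 (SE 0.11, adjusted p = 0.804) against day 0. The fall from day 2 to day 5 was called in both genotypes, with -1.47 (SE 0.13) in WT and -1.03 (SE 0.12) in Abcb10-null cells, and its interaction was 0.43 (SE 0.18, adjusted p = 0.153), which became 0.62 (adjusted p = 0.0471) without WT day 5 replicates 2 and 5.

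Against WT, *Myc* was lower in Abcb10-null cells at day 0 by 0.39 (SE 0.11, adjusted p = 0.00908), not called at day 2 (0.36, SE 0.14, adjusted p = 0.0695, but 0.00898 with all libraries in one fit, 0.0385 without mitochondria-encoded, globin and small RNA genes and 0.0441 without WT replicate 1) and higher at day 5 by 0.84 (SE 0.13, adjusted p = 0.000307). At days 0 and 5 the genotypes did not overlap, and the order of the genotypes at day 0 was opposite to that at day 5. The interaction was 0.81 (SE 0.18, adjusted p = 0.00411) over days 0 to 2 and 1.25 (SE 0.17, adjusted p = 8.28e-06) over days 0 to 5, and both kept their call without each library in turn. *Mycn* and *Mycl*, its relatives, were at a group mean of at most 0.145 and 0.868 CPM.

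Of 24 partners, cofactors and antagonists of the 10 factors, 20 were tested over days 0 to 5 in WT, and 11 rose and 6 fell, where 36.5% and 34.7% of all genes did. The rises with the highest log2 fold changes were those of *Mxd1* (3.59), which takes MAX from MYC and acts as its repressor, *Id3* (3.07, from 0.157 to 1.36 CPM), which binds E proteins, *Mxd4* (3.01), a relative of *Mxd1*, and the acetyltransferase *Crebbp* (2.54). *Mxd1* in WT was 4.79 ± 0.45 CPM at day 0, 15.4 ± 3.8 CPM at day 2 and 57.6 ± 17.4 CPM at day 5. In Abcb10-null cells it was 8.36 ± 1.5, 10.1 ± 1.6 and 19.6 ± 5.6 CPM, higher than WT at day 0 by 0.79 and lower at day 5 by 1.56, and the interaction over days 0 to 5 was -2.34 (SE 0.27, edgeR, adjusted p = 1.03e-06). *Mxd4* went from 28.2 ± 2.7 to 227 ± 22 CPM in WT and from 58.4 ± 3.8 to 125 ± 24 CPM in Abcb10-null cells, with an interaction of -1.90 (edgeR, adjusted p = 4.80e-09). *Mxi1*, another repressor of this kind, named after its values were seen, rose by 1.47 in WT and 0.65 in Abcb10-null cells, and its interaction was -0.82 (edgeR, adjusted p = 2.05e-05). Of the other genes listed for MYC, likewise named after their values were seen, *Max*, its obligate partner, fell by 0.57 in WT and *Mxd3* rose by 1.27, while *Mnt* (0.69) and *Mlx* (-0.10) were not called.

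The ratio of *Myc* to the sum of *Mxd1*, *Mxd4* and *Mxi1*, all per kilobase, was 0.729 to 1.06 at day 0 in WT, 0.491 to 0.658 at day 2 and 0.0682 to 0.0998 at day 5. In Abcb10-null cells it was 0.371 to 0.499, 0.664 to 0.996 and 0.210 to 0.315. The genotypes did not overlap at any of the 3 days, with WT the higher at day 0 and Abcb10-null the higher at days 2 and 5. *Mxd3* and *Mnt*, also listed for MYC, were left out of the sum, and *Mxi1* was named after its values were seen. The separation therefore holds for this choice of genes only. These values are a description and were not tested.

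**Figure D3:**
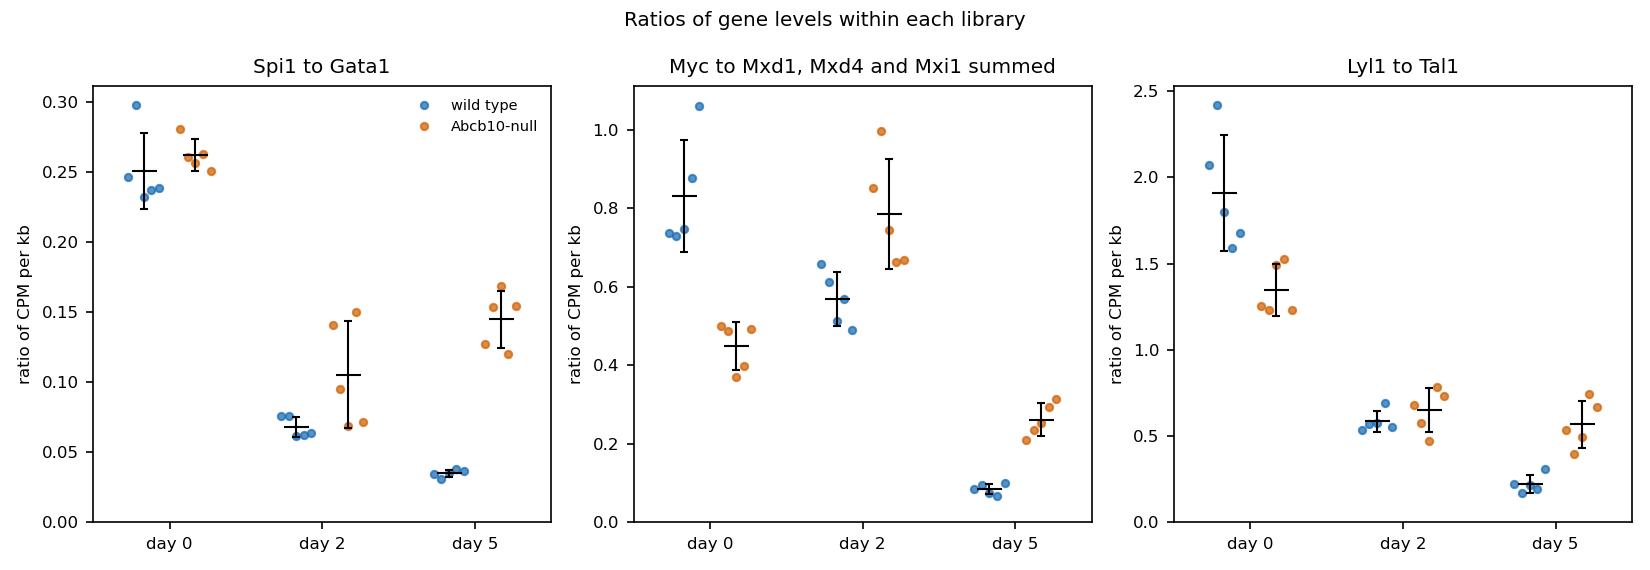
Ratios of gene levels in CPM per kb within each library, by day and genotype, for *Spi1* to *Gata1*, *Myc* to 3 repressors that share its partner MAX, and *Lyl1* to *Tal1*; black marks show the mean and SD of 5 libraries. At day 5 the Abcb10-null libraries lie above the WT libraries in each panel, at 0.120 to 0.169 against 0.0311 to 0.0382 in the first.

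Of 20 genes known to be under MYC control, 19 were in the table and all 19 were tested. From day 0 to day 2 in WT 17 fell and 0 rose, with a median of -1.004 and beside 30.7% of all genes that fell, although *Myc* itself was not called lower over these days. From day 0 to day 5 18 fell and 1 rose, with a median of -2.02 beside 0.02 over all genes, of which 34.7% fell. *Nolc1*, a nucleolar phosphoprotein, fell by 2.93 (827 to 109 CPM), *Fbl*, the methyltransferase of ribosomal RNA, by 2.66, *Mybbp1a*, a nucleolar repressor, by 2.59, and *Pa2g4*, a growth regulator of ribosome assembly, by 2.56, while *Ccnd2* (cyclin D2) rose by 0.82. In Abcb10-null cells 9 fell and 2 rose to day 2, with a median of -0.31, beside 20.1% and 23.1% of all genes. To day 5, 18 fell and 1 rose, with a median of -1.06, beside 33.3% and 33.9%. The interaction was called higher for 15 of 19 and lower for 0, both over days 0 to 2 and over days 0 to 5, where 22.8% and 31.5% of all genes were called in either direction. Abcb10-null cells were lower in 13 and higher in 1 of the 19 at day 0, and higher in 13 and lower in 0 at day 5, beside 16.2% of all genes lower at day 0 and 19.8% higher at day 5.

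*Runx1* (ENSMUSG00000022952, chromosome 16, 92601466 to 92826149, minus strand), the core binding factor of definitive hematopoiesis, was the only gene of the 10 called higher at both days 2 and 5 in both genotypes. Its WT values were 10.5, 11.1, 13.1, 16.04 and 17.1 CPM at day 0, 83.3, 74.7, 32.6, 25.7 and 41.3 CPM at day 2 and 36.95, 119, 36.9, 55.5 and 32.5 CPM at day 5. Every treated library was above every untreated one. Replicates 1 and 2 stood above the rest at day 2 and replicate 2 at day 5.

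In Abcb10-null cells *Runx1* was 13.02, 13.8, 12.6, 13.1 and 12.7 CPM at day 0, 31.2, 26.5, 27.9, 19.1 and 23.99 CPM at day 2 and 52.6, 39.9, 36.4, 46.0 and 42.7 CPM at day 5, with a narrower spread and no overlap between days. The rise was 1.92 (SE 0.30, adjusted p = 0.000105) to day 2 and 2.05 (SE 0.34, adjusted p = 0.000101) to day 5 in WT, and 1.01 (SE 0.14, adjusted p = 6.82e-05) and 1.74 (SE 0.11, adjusted p = 9.55e-10) in Abcb10-null cells. From day 2 to day 5 it was not called in WT (0.13, SE 0.39, adjusted p = 0.83) and was called in Abcb10-null cells (0.76, SE 0.15, adjusted p = 0.00206), and the interaction of that interval was 0.62 (SE 0.44, adjusted p = 0.437).

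The genotype difference in *Runx1* at day 2 was -1.06 (SE 0.30, adjusted p = 0.0178), and it rested on 2 WT libraries: without replicate 1 or replicate 2 it was -0.88 to -0.81 with adjusted p of 0.0512 to 0.0515, and without both it was -0.41 with an adjusted p of 0.178. The interaction over days 0 to 2, -0.93 (SE 0.33, adjusted p = 0.0479, and 0.0966 in the fit of all libraries), was -0.33 without both (adjusted p = 0.367), and the call was lost without 13 of the 20 libraries taken singly, at -1.02 to -0.74: WT day 0 replicates 1, 2 and 3, WT day 2 replicates 1 and 2, Abcb10-null day 0 replicates 1 to 5 and Abcb10-null day 2 replicates 3, 4 and 5. At day 5 the difference was -0.39 (SE 0.31, adjusted p = 0.345), and without WT replicate 2 it was 0.08.

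The libraries with the most *Runx1* were also those with the most counts on genes with long exon length. *Runx1* has 12025 exonic bases and *Myb* 8933, and they were the only genes of the 10 over 8000 bases. Genes over 8000 exonic bases held 22.9% and 22.7% of the counts in WT day 2 replicates 1 and 2, and 17.95% to 18.9% in replicates 3 to 5. They held 28.04% in WT day 5 replicate 2, and 20.7% to 22.5% in the other 4. At day 0 in WT the share was 15.2% to 17.2%. In the Abcb10-null libraries the share was 15.8% to 18.6% at day 0, 18.02% to 20.04% at day 2 and 19.3% to 20.9% at day 5. In both genotypes every day 5 library was above the day 0 range, and *Runx1* rose over the same days. The part of this share in the *Runx1* values was not tested.

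**Figure D4:**
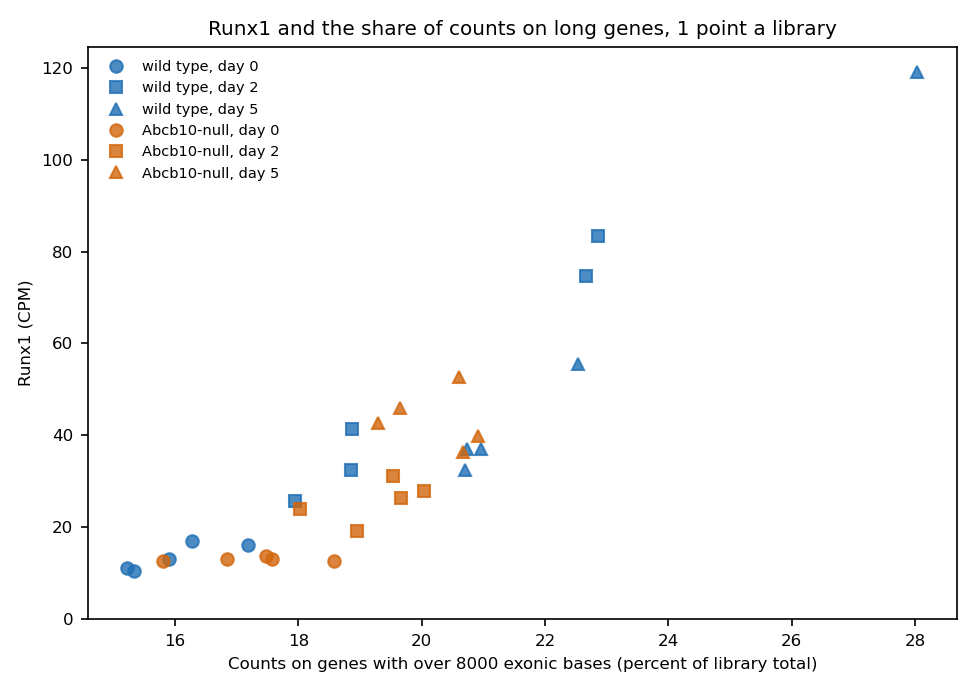
*Runx1* in CPM against the percent of a library's counts on genes with over 8000 exonic bases, 1 point for each of 30 libraries, with shapes for the day and colors for the genotype. WT day 5 replicate 2 lies alone at the top right (28.04% and 119 CPM), followed by WT day 2 replicates 1 and 2, while *Runx1* of the day 0 libraries is at most 17.1 CPM.

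*Runx1* has a distal and a proximal promoter, which gene counts do not separate. Both are shown, as the 250 bases before each start on the minus strand, because this is the member that rose. The distal one is chr16:92826075-92826324 and the proximal one chr16:92697330-92697579, and capitals mark the matches to the letters searched.

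Runx1 distal: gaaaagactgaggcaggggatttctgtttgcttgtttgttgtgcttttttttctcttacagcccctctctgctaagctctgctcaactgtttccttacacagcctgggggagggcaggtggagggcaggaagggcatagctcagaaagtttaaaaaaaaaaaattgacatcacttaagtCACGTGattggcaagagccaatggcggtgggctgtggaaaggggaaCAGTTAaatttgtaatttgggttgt
Runx1 proximal: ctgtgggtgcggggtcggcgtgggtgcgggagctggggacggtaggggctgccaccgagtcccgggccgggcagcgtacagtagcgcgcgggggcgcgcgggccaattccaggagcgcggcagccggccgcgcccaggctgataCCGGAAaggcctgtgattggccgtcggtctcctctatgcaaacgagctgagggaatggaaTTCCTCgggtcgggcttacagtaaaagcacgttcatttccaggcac

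The distal window held an E-box at -71 and a match to TAACNG on the opposite strand at -25, counted from the start, and past the start 2 matches to TGTGGT on the opposite strand, at 29 and 37. The proximal window held CCGGAA at -106 and GAGGAA on the opposite strand at -46. The distal window was 45.0% G or C and the proximal one 69.0%. A match says only that the letters are there.

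*Cbfb*, the partner of RUNX1 that does not bind DNA itself, went down while *Runx1* went up: it was 97.8 ± 17.4 CPM at day 0 and 29.6 ± 6.1 CPM at day 5 in WT, a fall of 1.73, and 165 ± 7.4 and 94.2 ± 15.1 CPM in Abcb10-null cells, a fall of 0.81. It was higher in Abcb10-null cells by 0.75 at day 0, 1.04 at day 2 and 1.66 at day 5, and the interaction over days 0 to 5 was 0.93 (SE 0.20, edgeR, adjusted p = 0.00092). *Runx3* was 2.19 ± 0.74 CPM at day 0, 7.50 ± 2.2 CPM at day 2 and 3.02 ± 0.92 CPM at day 5 in WT, with a called rise of 1.77 to day 2, and 2.23 to 2.45 CPM in the means of Abcb10-null cells, where no change was called.

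*Cebpa* (ENSMUSG00000034957, chromosome 7, 35119293 to 35121928, plus strand), the granulocyte factor, fell in both genotypes. WT levels were 39.6, 39.05, 31.9, 31.0 and 35.7 CPM at day 0, 21.5, 22.3, 33.0, 28.9 and 23.6 CPM at day 2 and 20.7, 14.1, 21.2, 21.1 and 34.25 CPM at day 5. The days overlapped through WT day 2 replicate 3 and WT day 5 replicate 5. The falls were 0.46 (SE 0.13, adjusted p = 0.00947) to day 2, which was 0.28 (adjusted p = 0.0543) without WT day 2 replicates 1 and 2, and 0.67 (SE 0.19, adjusted p = 0.00557) to day 5.

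In Abcb10-null cells *Cebpa* was 39.3, 46.9, 56.8, 49.4 and 38.6 CPM at day 0, 25.1, 23.1, 16.04, 21.8 and 22.5 CPM at day 2 and 37.5, 27.02, 32.1, 17.96 and 23.1 CPM at day 5. Days 2 and 5 each lay below day 0, with falls of 1.06 (SE 0.15, adjusted p = 8.47e-05) and 0.73 (SE 0.17, adjusted p = 0.00111). It was higher than in WT at day 0 by 0.38 (SE 0.10, adjusted p = 0.00864), a call lost with all libraries in one fit (adjusted p = 0.196). The interaction over days 0 to 2 was -0.63 (SE 0.20, adjusted p = 0.0302), and without WT or Abcb10-null day 0 replicate 3 it was -0.59 to -0.54, with adjusted p of 0.055 to 0.0606, and in the fit of all libraries the adjusted p was 0.0876. The 51 exon bases that *Cebpa* shares with the antisense *Gm45091*, which had at most 12 counts, are 1.93% of its exon length.

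*Cebpb*, the inflammatory and stress member of the C/EBP family, was 37.5 ± 6.8 CPM at day 0 in WT. At day 5 in WT it was 66.6 CPM in replicate 5 and 7.38 to 13.1 CPM in the other 4. In Abcb10-null cells *Cebpb* was 30.8 ± 12 and 78.4 ± 13 CPM on these days, a called rise of 1.36 there, with an interaction of 2.15 (SE 0.57, edgeR, adjusted p = 0.00598). At day 5 it was higher in Abcb10-null cells by 1.85. *Cebpg*, the neighbour of *Cebpa* on the lower-coordinate side and a partner of other basic leucine zipper factors, reached 114 ± 45 CPM (WT) and 371 ± 47 CPM (Abcb10-null) at day 5. Its difference was 0.16 at day 0, not called, and 1.70 (SE 0.20, edgeR, adjusted p = 5.43e-05) at day 5. *Cebpd* rose in both, by 1.03 and 1.38 to day 5, from 3.11 to 6.38 CPM in WT, with no difference called between genotypes.

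*Ikzf1* (ENSMUSG00000018654, chromosome 11, 11685003 to 11772926, plus strand), the zinc finger factor Ikaros, fell late and further in Abcb10-null cells. The WT libraries were at 98.2, 107, 105, 116 and 122 CPM at day 0, 92.4, 81.2, 69.5, 89.7 and 76.8 CPM at day 2 and 72.2, 101, 72.45, 84.8 and 83.9 CPM at day 5. Day 2 lay below day 0, and day 5 overlapped day 0 through replicate 2. The falls were 0.42 (SE 0.09, adjusted p = 0.00142) and 0.40 (SE 0.11, adjusted p = 0.00472).

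In Abcb10-null cells *Ikzf1* was 131, 126, 112, 127 and 117 CPM at day 0, 72.3, 116, 115, 77.9 and 88.1 CPM at day 2 and 56.6, 61.3, 63.5, 49.8 and 52.7 CPM at day 5. Replicates 2 and 3 were near day 0 at day 2 and the other 3 were below it, and every day 5 library was below every other. The fall was 1.10 (SE 0.09, adjusted p = 1.65e-08), or 2.15-fold, to day 5 and 0.35 (SE 0.14, adjusted p = 0.056) to day 2, where it was called without replicate 2 or 3 (adjusted p of 0.011 to 0.0313), with all libraries in one fit (0.0116) and with either other filter on low counts (0.026 and 0.0489).

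At day 5 *Ikzf1* was lower in Abcb10-null cells by 0.56 (SE 0.12, adjusted p = 0.00334), with no overlap, and at days 0 and 2 no difference was called (0.15, SE 0.07, adjusted p = 0.0973, and 0.15, SE 0.16, adjusted p = 0.488). The interaction was -0.69 (SE 0.14, adjusted p = 0.00071) over days 0 to 5 and held without each library in turn. Over days 2 to 5 it was -0.75 (SE 0.20, adjusted p = 0.0319), a call lost without 15 of the 20 libraries taken singly, at -0.77 to -0.62 and adjusted p of 0.0518 to 0.102: the calls that held were those without Abcb10-null day 2 replicate 1 or 4, WT day 5 replicate 3 or 5 or Abcb10-null day 5 replicate 3.

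*Ikzf2* (Helios), the relative that pairs with Ikaros, differed between genotypes before any treatment. It was 19.02 ± 0.42 CPM for WT and 151 ± 16.9 CPM for Abcb10-null cells at day 0, a difference of 2.98 (SE 0.08, edgeR, adjusted p = 2.18e-15). It then fell in both, by 1.47 to day 5 in WT (6.87 ± 1.9 CPM) and by 3.34 in Abcb10-null cells (14.8 ± 1.9 CPM). *Ikzf4* rose from 0.253 to 2.16 CPM in WT and from 0.219 to 1.18 CPM in Abcb10-null cells, with 3.05 and 2.40, and *Ikzf5* rose from 34.4 to 72.5 CPM and from 36.6 to 73.1 CPM, by 1.07 and 1.01. Of 26 relatives of the 10 factors, 16 were tested over days 0 to 5 in WT, with 8 higher and 2 lower (*Mybl2* and *Ikzf2*), beside 36.5% and 34.7% of all genes, and 16 in Abcb10-null cells, with 8 higher and 5 lower, beside 33.9% and 33.3%.

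*Lyl1* (ENSMUSG00000034041, chromosome 8, 84701457 to 84704715, plus strand), the basic helix-loop-helix factor of lymphoid leukemia, fell in WT and had no called change with time in Abcb10-null cells. WT values were 94.7, 97.5, 81.5, 71.0 and 78.4 CPM at day 0, 64.3, 67.6, 55.5, 66.9 and 53.4 CPM at day 2 and 71.5, 54.5, 64.0, 64.2 and 67.5 CPM at day 5. Day 2 lay below day 0, and one library of day 5 did not. The falls were 0.46 (SE 0.10, adjusted p = 0.00179) and 0.40 (SE 0.11, adjusted p = 0.00492).

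In Abcb10-null cells *Lyl1* was 54.4, 55.9, 66.1, 68.2 and 56.5 CPM at day 0, all below WT, with a difference of -0.50 (SE 0.09, adjusted p = 0.00032). At day 2 it was 79.6, 38.2, 63.2, 99.8 and 58.8 CPM, with replicates 1 and 4 the highest, the same libraries that stood out in *Spi1*, and at day 5 68.3, 51.4, 62.6, 69.9 and 65.8 CPM. At days 2 and 5 no difference from WT was called. The interaction over days 0 to 2 was 0.64 (SE 0.23, adjusted p = 0.0506), and it was called with all libraries in one fit (0.0421), with all genes with at least 1 count (0.00949) and without Abcb10-null day 2 replicate 2 or 5 (0.00349 and 0.0433). Over days 0 to 5 it was 0.49 (SE 0.15, adjusted p = 0.0139), with 0.115 in the fit of all libraries and 0.0934 with all genes with at least 1 count. *Lyl1* shares 4 exon bases with *Nfix*, on the other strand.

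*Tal1*, the relative of *Lyl1* that drives the erythroid program, went the other way: from 108 ± 6.0 CPM at day 0 to 257 ± 31 CPM at day 2 and 723 ± 115 CPM at day 5 in WT, and from 109 ± 2.3 to 255 ± 73 and 280 ± 42 CPM in Abcb10-null cells. Its rise to day 5 was 2.74 in WT and 1.37 in Abcb10-null cells, with an interaction of -1.36 (SE 0.16, edgeR, adjusted p = 1.04e-06). Per kilobase, *Lyl1* was 1.59 to 2.42 times *Tal1* at day 0 in WT and 0.1695 to 0.313 times at day 5. In Abcb10-null cells it was 1.23 to 1.53 and 0.397 to 0.744 times, with no overlap of the genotypes at either of these days. At day 2 the genotypes overlapped, at 0.534 to 0.694 times in WT and 0.470 to 0.787 times in Abcb10-null cells. Of the partners of this pair, *Lmo2*, which bridges TAL1 to GATA-1, fell by 1.61 to day 5 in WT (193 to 63.1 CPM) and by 1.76 in Abcb10-null cells, *Tcf3*, an E protein, by 0.89 and 1.06, and *Id1*, an inhibitor of E proteins, by 3.02 and 0.59, the last with an interaction of 2.44 (edgeR, adjusted p = 6.13e-07).

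**Figure D5:**
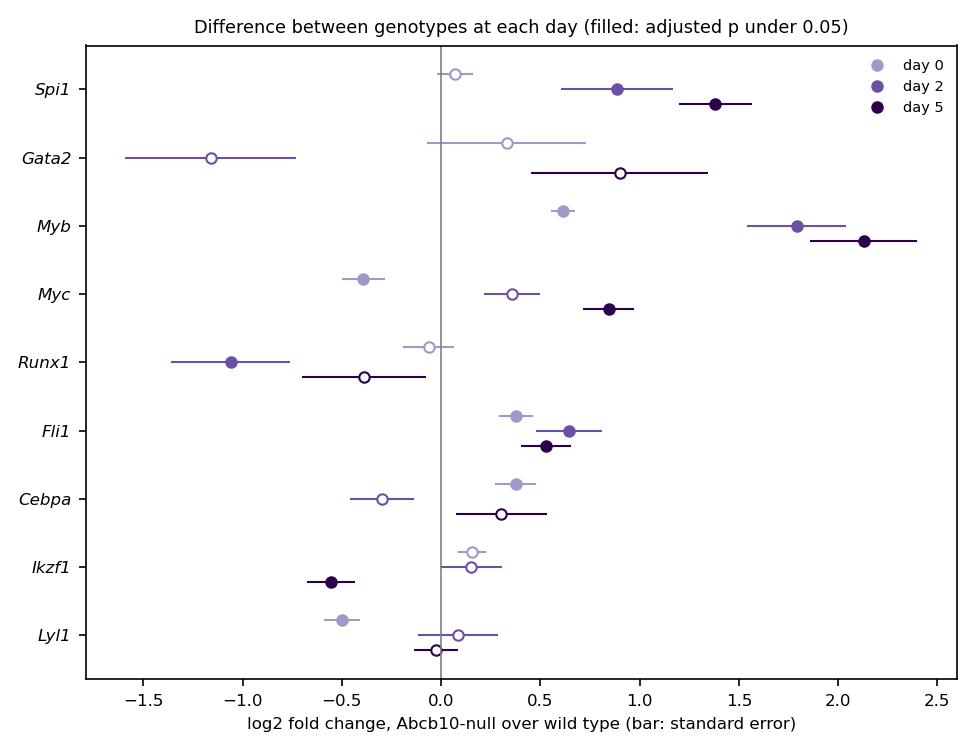
Log2 fold change of Abcb10-null over WT at days 0, 2 and 5 for the 9 genes tested, with bars for the SE and filled points for an adjusted p under 0.05. *Myb* moves right with the days, from 0.61 to 2.13, *Spi1* starts near 0 and reaches 1.38, and *Myc* crosses from -0.39 to 0.84.

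Among 21 other progenitor and leukemia regulators, 11 were tested over days 0 to 5 in WT, with 2 higher and 4 lower, beside 36.5% and 34.7% of all genes. *Stat5a*, the signal transducer of the erythropoietin receptor, fell by 1.81 (82.2 to 23.4 CPM), *Etv5* by 1.64 (2.56 to 0.839 CPM), *Meis1*, the homeobox partner of HOXA9, by 1.55 (19.6 to 6.71 CPM) and *Egr1* by 1.17 (2.29 to 1.02 CPM), while *Kmt2a*, the MLL methyltransferase, rose by 2.08 and *Nfe2l2* (NRF2) by 0.61. In Abcb10-null cells 1 rose and 5 fell, beside 33.9% and 33.3% of all genes. *Meis1* was higher in Abcb10-null cells by 0.62 at day 0, 0.66 at day 2 and 1.13 at day 5, where the means were 6.71 ± 1.03 CPM (WT) and 14.9 ± 4.4 CPM (Abcb10-null). *Kmt2a* had its highest values, 91.4 and 106 CPM at day 2 and 121 CPM at day 5, in the same WT libraries as *Runx1*.

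The 9 erythroid factors taken for comparison all rose from day 0 to day 5 in WT, with a median of 0.98, and 7 rose and 2 fell in Abcb10-null cells, with a median of 0.63. All genes tested had medians of 0.02 and 0.01, with 36.5% called higher in WT and 33.9% higher and 33.3% lower in Abcb10-null cells. *Foxo3*, which protects red cell precursors from oxidation, rose by 3.32 and 2.17, *Tal1* by the values above, *Klf3* by 2.52 and 0.61 and *Nfe2* by 1.38 and 0.26. Between genotypes at day 5, 6 of the 9 were lower in the Abcb10-null libraries and 0 were higher (median -1.01), beside 17.8% and 19.8% of all genes.

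The nearest protein-coding genes on either side were read beside each member. *Slc39a13* and *Mybpc3*, which flank *Spi1* at 11973 and 2388 bases, rose in WT over days 0 to 5 by 1.54 and 5.17 while *Spi1* fell. *Ahi1* and *Hbs1l*, which flank *Myb* at 44506 and 134995 bases, rose by 2.42 and 0.28. *Setd4*, 757308 bases from *Runx1*, fell by 1.22. *Trmt1*, 1649 bases from *Lyl1*, fell by 1.49, and *Fignl1*, 14505 bases from *Ikzf1*, by 1.02. Of the 20 neighbours, 11 were tested in WT over these days, with 6 higher and 4 lower, beside 36.5% and 34.7% of all genes.

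By the shape of their levels over the 6 groups (the root mean square difference of centred log2 CPM among 12151 genes with a mean of at least 1 CPM), *Bcas3* was nearest to *Runx1* (0.0392), followed by *Plekhm3* and *Wbp2*. An unnamed gene (ENSMUSG00000100618), *Slc6a13* and *Chchd4* were nearest to *Spi1* (0.0852, 0.101 and 0.110), *Phf11d* and *Sapcd1* near *Myb* (0.253 and 0.257), *Frrs1* near *Myc* (0.166), *Coq9* near *Fli1* (0.051), *Syk* near *Cebpa* (0.0691), *Dnajc12* near *Ikzf1* (0.05), *Prpf6* near *Lyl1* (0.0649) and *Itga5* near *Gata2* (0.121). *Myb* had the least close match of the 9, with a range of 5.51 on this scale over the 6 groups, against 0.486 for *Lyl1*.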

How the data were processed

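RNA was depleted of ribosomal and globin transcripts and made into stranded libraries. The authors trimmed adapters, aligned to GRCm38 with STAR 2.6.1b and counted reads on Ensembl genes with featureCounts 1.6.3, and the deposited values are these counts, not normalized. The strand and multimapping settings are not given in the sources used here. Of the 54532 genes in the table, 9219 were at 0 throughout. Positions and exon lengths came from GENCODE M21 (GRCm38), and promoters from RefSeq (GRCm38.p6).

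The counts went into edgeR 4.0.16 under R 4.3.3 (TMM, filterByExpr, glmQLFit, glmQLFTest), each comparison on the libraries of its own groups, 10 for a pair of groups and 20 for an interaction. The steps were tested on simulated data with the same spread for every gene. That setting does not mimic the uneven replicates seen here. CPM are counts over the TMM-scaled library size of all 30 libraries. *Erg*, below the filter, was compared with an exact permutation test of CPM.

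The 10 genes and all gene lists were chosen with earlier results of these data known. Named genes are the 10, from each list the genes called in WT over days 0 to 5 with the largest changes, at most 4 for a direction, the relatives *Gata1*, *Mybl2*, *Mycn*, *Mycl*, *Runx3*, *Ets1*, *Cebpb* and *Spib*, the flanking genes and the 3 genes nearest in shape. Alternatives were DESeq2 1.42.0, its size factors in edgeR, no filter, at least 10 counts in every library, all 30 libraries in one fit, the replicate number as a block, no mitochondria-encoded, globin or small RNA genes, and each library left out. Replicates differed by more than counting error (chi-square per degree of freedom at least 6.23).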

Additional observations from a re-analysis of the deposited data

Results flagged for a closer look

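In 3 cases 1 library stood apart from the other 4 of their group by Dixon's test at the 5% level, among 60 sets of 5 values, of which chance flags about 1 in 20. They were *Spi1* in Abcb10-null day 0 replicate 5 (64.3 CPM, others 77.7 to 80.9), *Myc* in WT day 0 replicate 5 (47.6 CPM, others 33.3 to 36.4) and *Runx1* in WT day 5 replicate 2 (119 CPM, others 32.5 to 55.5).

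The change over time differed between the genotypes in 11 tests of the interaction in edgeR. Over days 0 to 2 the difference of the log2 fold changes (Abcb10-null minus WT) was 0.87 for *Spi1*, 1.22 for *Myb*, 0.81 for *Myc*, -0.93 for *Runx1* and -0.63 for *Cebpa*. Over days 0 to 5 it was 1.33 for *Spi1*, 1.52 for *Myb*, 1.25 for *Myc*, -0.69 for *Ikzf1* and 0.49 for *Lyl1*, and over days 2 to 5 it was -0.75 for *Ikzf1*.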

How the results depend on the processing

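Of 108 changes of single genes tested, 57 were called, 45 of these were called in every alternative listed in the methods, and none turned direction under any. The number of the 10 genes called at day 0 between genotypes fell from 5 to 2 with all 30 libraries in one fit, where 1584 genes were called over the whole table. Without WT day 2 replicates 1 and 2, chosen after seeing the data, the day 2 difference held 738 genes and 1 of the 10 (*Myb*), the interaction over days 0 to 2 1791 genes and 3 of the 10, and that over days 2 to 5 166 genes and 0 of the 10. The interaction over days 2 to 5 (657 genes, 1 of the 10) gave 1235 genes and 2 of the 10 in DESeq2, 1705 and 2 with all libraries in one fit, 0 of the 10 with all genes with at least 1 count, and 1276 genes without WT day 5 replicates 2 and 5. Leaving out 1 library each gave 2665 to 5357 genes and 2 to 5 of the 10 at day 2 between genotypes, 2366 to 4760 genes and 2 to 6 of the 10 for the interaction over days 0 to 2, and 275 to 1352 genes and 0 to 2 of the 10 over days 2 to 5. The cause of these shifts was not tested.

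With the replicate number as a block, 2 instead of 5 of the 10 genes were called in the interaction over days 0 to 2: *Spi1* (0.82, adjusted p = 0.0572), *Runx1* (-0.85, 0.0712) and *Cebpa* (-0.61, 0.0531) were lost, as was *Fli1* in WT from day 0 to day 2 (-0.29, 0.054). The block changed no other call among the 10. Over 75 pairs of same-numbered libraries the correlation of deviations from the group means ran from -0.26 to 0.43, with 8 over 0.1. Pairs with different numbers were not compared, so these values cannot show whether the number carries a pairing, and the labels give only the number.

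Some changes with no call in the report turned sign. With all genes with at least 1 count these were *Myc* (-0.065) and *Lyl1* (-0.016) in Abcb10-null cells from day 0 to 5 and *Ikzf1* in WT from day 2 to 5 (-0.038), the last also with at least 10 counts in every library (-0.016). Without WT day 2 replicates 1 and 2 it was *Gata2* in WT from day 0 to 2 (-0.013). Without WT day 5 replicates 2 and 5 they were *Runx1* (-0.23) and *Ikzf1* (-0.081) in WT from day 2 to 5 and the interactions of *Runx1* (0.080) and *Cebpa* (0.038) over days 0 to 5. Leaving out single libraries, the range spanned 0 for *Fli1* (-0.071 to 0.017), *Ikzf1* (-0.052 to 0.075) and *Runx1* (-0.32 to 0.36) in WT from day 2 to 5, *Fli1* from day 0 to 2 (-0.043 to 0.16), *Gata2* (-0.41 to 0.039) and *Myc* (-0.022 to 0.066) from day 0 to 5 and *Lyl1* from day 2 to 5 (-0.24 to 0.084) in Abcb10-null cells, between genotypes for *Spi1* (-0.0045 to 0.13) and *Runx1* (-0.16 to 0.023) at day 0, *Lyl1* at day 2 (-0.093 to 0.24) and at day 5 (-0.093 to 0.023) and *Runx1* at day 5 (-0.55 to 0.080), and in the interaction for *Ikzf1* over days 0 to 2 (-0.080 to 0.12), *Cebpa* (-0.19 to 0.15) and *Runx1* (-0.47 to 0.18) over days 0 to 5 and *Lyl1* over days 2 to 5 (-0.28 to 0.046).

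Depth limits *Gata2*, with as few as 4 counts in a library, and *Erg*. Intervals here come from the spread between libraries of 1 clone and 1 parent line.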
